A study of Mus musculus with 16 samples.

Results

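The 16 arrays of this expression profiling could be divided into a first set and a second set that cut across the design. The first set held replicates 1 and 2 of day 5 and replicates 1 and 4 of day 6 of both genotypes, and the second set held replicates 3 and 4 of day 5 and replicates 2 and 3 of day 6 of both genotypes. Each set therefore counted 8 of the 16 arrays, with 2 arrays from each of the 4 genotype-by-day groups. Replicate 1 always lay in the first set and replicate 3 always in the second. The division came from the measured values themselves, in a table without normalization, and the labels name no such division. Every difference between the sets below is for that reason a description of these arrays, given with its standard error (SE) and without a test. A fit of whether the null effect differed between the sets has p-values, and for the same reason it is no independent test.

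The cultures were mouse embryonic stem (ES) cells differentiated with Activin-A towards definitive endoderm (DE). The groups were Lhx1+/+ (wild-type) and Lhx1-null cultures at day 5 and at day 6 of differentiation, with 4 cultures each. The methods describe independent ES cell lines derived in 2i/LIF medium from blastocysts of Lhx1Δ/+ intercrosses, with EGF added together with Activin-A in all groups. The descriptions of null day 6 replicates 3 and 4 give both as replicate 2, so the titles decided their numbers and thereby their sets.

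Lhx1 is a LIM-homeodomain transcription factor of the anterior primitive streak and its derivatives, the definitive endoderm and the axial midline. Activin-A acts through the Nodal receptors, and the receptor signal is carried into the nucleus by Smad proteins, which together with Eomes switch on endoderm genes such as Sox17, Foxa2 and Cer1. Expression arrays read each transcript through probes of a single short sequence on beads, so that 2 probes of a gene are separate measurements of its RNA. Cultures that are grown, extracted, labelled or hybridized together often share differences in many probes at once, and which of these steps any 2 of the present arrays shared is not stated in the sources used here.

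Signal over background differed between the sets through 4 arrays. In the first set, 13928 to 15319 of the 45281 probes on an array lay above background at a detection p under 0.01 (median 14573.5), against 10734 to 15453 in the second set (median 12723.5). The DE markers Sox17, Hhex, Lhx1 and Otx2 were above background on all 16 arrays, Foxa2 and Eomes on 14 and Cer1 on 13. The lowest numbers of probes, 10734 to 12194, came from the replicate 3 arrays of the 4 groups. Without them the 4 remaining arrays of the second set had 13253 to 15453 probes above background (median 14728), within or close to the range of the first set. The background intensity inferred from the detection p-values was 178.758 to 209.297 in the first set and 162.919 to 262.78 in the second.

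**Figure D1:**
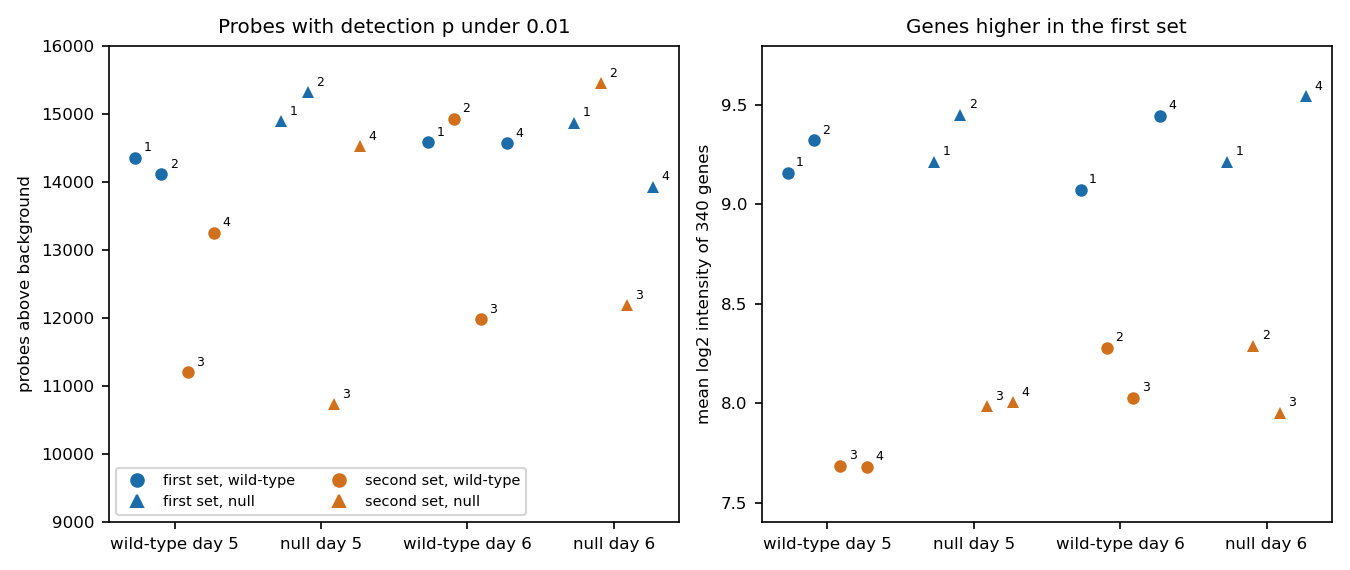
Probes above background (left, number of probes, axis not starting at 0) and mean log2 intensity of the 340 genes higher in the first set (right) on each of the 16 arrays, by genotype-by-day group, with the replicate number beside each point. Replicate 3 arrays had the fewest probes above background, 10734 to 12194. The second-set arrays were lower in the right panel, which the choice of the 340 genes favours.

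The first set was marked by a group of genes with brighter signal in both genotypes and on both days. Of the 10939 genes measured, 340 (3.11%) were separated and at least 1 log2 unit higher in the first set, meaning that both first-set arrays lay above both second-set arrays in each of the 4 groups. In the opposite direction the same rule gave 2 genes, 0.0183% of those measured. With separation alone, whatever the size, 702 genes (6.42%) were higher and 153 (1.4%) lower in the first set. The number of higher genes depended on the processing, with 87 genes without background correction, 87 on the deposited rank invariant intensities and 110 among genes above background on all 16 arrays. These counts rest on the values that chose the sets and stand as their description. The smallest difference inside the limit that belonged to a gene with a symbol was 1.00 for Spats2l, and the largest just outside it was 0.995 for Ctr9.

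Over all 10939 genes the first minus second set difference had a median of -0.06 log2 units and a median size of 0.21, and 41.5% of the genes were above 0. The 340 genes were thus a tail on the high side of a distribution that leaned slightly to the low side. The set difference held 23.1% of the sum of squares within groups and 15.9% of the total, beside 30.9% of the total for the 4 genotype-by-day groups. It was not a single direction among the arrays. The first principal component of the deviations from group means held 29.0% of the variance within groups, of which 58.1% lay between the sets, and the second held 16.7%, of which 34.6% lay between them.

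The leading genes had diverse roles. 2300009A05Rik, the gene with the largest difference, read 8.09 and 7.81 in null day 5 replicates 1 and 2, 7.96 and 8.42 in null day 6 replicates 1 and 4, 8.01 and 7.93 in wild-type day 5 replicates 1 and 2, and 7.98 and 8.67 in wild-type day 6 replicates 1 and 4. The second-set arrays read 5.81 and 6.15 in null day 5 replicates 3 and 4, 6.75 and 5.60 in null day 6 replicates 2 and 3, 5.86 and 5.92 in wild-type day 5 replicates 3 and 4, and 5.84 and 6.39 in wild-type day 6 replicates 2 and 3. All 8 second-set arrays thus lay below all 8 first-set arrays, and none of the second was above background. The measured difference was 2.07 (SE 0.17), and against the background level of the second set the gene was at least 1.51-fold higher in the first.

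Aldh6a1, an enzyme of valine breakdown in mitochondria, ran from 8.25 to 9.48 log2 units in the first set (median 8.44) and from 6.01 to 7.59 in the second (median 6.64), a difference of 1.94 (SE 0.21). Il17rd, a membrane inhibitor of FGF signalling, ran from 9.52 to 10.81 (median 9.79) and from 7.41 to 8.95 (median 7.96), a difference of 1.86 (SE 0.28). Cenph, a protein of the inner kinetochore, ran from 8.11 to 9.16 (median 8.66) and from 5.91 to 7.55 (median 6.95), a difference of 1.79 (SE 0.21). In these 3 genes no second-set array reached the lowest first-set array, whichever the genotype or day. Pin4, a peptidyl-prolyl isomerase, Oxr1, which protects cells from oxidative damage, and 0610009B22Rik likewise did not overlap, with differences of 1.80, 1.79 and 1.78. Of the 8 second-set arrays, 2 had Aldh6a1 above background, 3 Cenph, 1 Pin4 and 3 Oxr1, against 6 each for Il17rd and 0610009B22Rik. The differences of the former 4 genes thus rest largely on second-set values that were not above background.

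Gpc4, a cell-surface heparan sulfate proteoglycan, was separated within every group and overlapped between them. It read 7.69, 9.93, 10.25 and 10.07 in the first-set wild-type arrays and 5.66 to 7.84 in the first-set null arrays, against 6.04 to 8.78 and 5.25 to 5.69 in the second set. Within each set and day both wild-type arrays lay above both null arrays, and the set difference was 2.35 among wild-type and 1.36 among null arrays. Gpc4 was above background on 6 first-set arrays and 1 second-set array, so these differences rest in part on values not above background. Tanc1, Tmem203, Rwdd4a and Pcmtd2 completed the 12 leading genes at 1.89, 1.83, 1.77 and 1.77. None of the 4 was above background on any second-set array, which leaves only bounds of at least 1.56-fold for Tanc1, 1.22-fold for Tmem203 and 1.72-fold for Rwdd4a, and none for Pcmtd2.

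**Figure D2:**
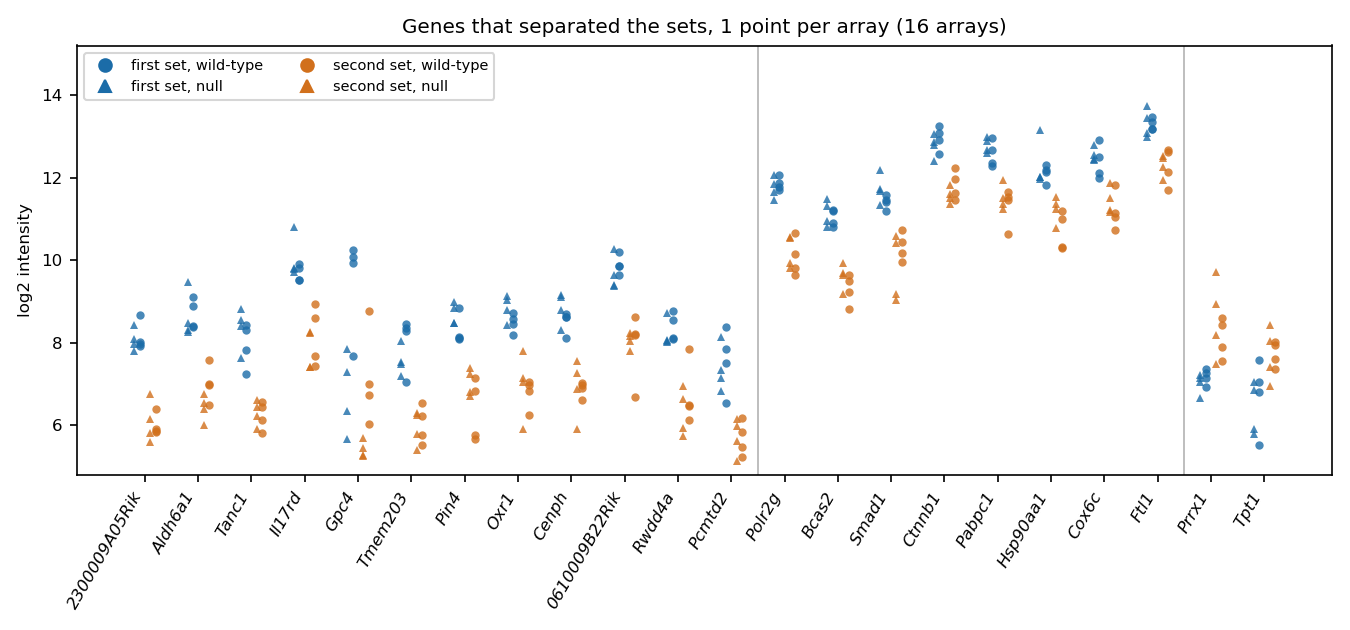
Log2 intensity of the 12 genes with the largest set difference (left), 8 bright genes of the same group (middle) and the 2 genes lower in the first set (right), 1 point per array, with sets by colour and genotypes by marker. In all but Gpc4 and Tpt1 the 8 arrays of each set occupy ranges that do not overlap.

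The difference was not confined to dim probes. Of the 340 genes, 302 were above background on all 8 first-set arrays and 109 on all 8 second-set arrays, whereas 40 were above background on no second-set array. On all 16 arrays, 32.1% of the 340 genes were above background, against 65.9% of all 10939 genes. Ranges of the 8 first-set and 8 second-set arrays did not overlap at all for 263 of the 340 genes. Over all 10939 genes, 455 had a first-set range wholly above that of the second set. The rule that chose the 340 genes favours such ranges. In 5 equal bins of mean intensity from dimmest to brightest, the 340 genes numbered 111, 107, 65, 45 and 12, and the median difference over all genes of a bin stayed between -0.10 and -0.03.

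Among the brighter members, chosen here after their values were seen, were general components of transcription, translation and metabolism. Polr2g, a subunit of RNA polymerase II, ran from 11.46 to 12.07 log2 units in the first set (median 11.82) and from 9.63 to 10.67 in the second (median 10.05), a difference of 1.67 (SE 0.16) or 3.18-fold. Bcas2, a spliceosome component, ran from 10.80 to 11.47 and from 8.82 to 9.94, a difference of 1.63 (SE 0.15). Mrpl52 of the mitochondrial ribosome and Hcfc1, a chromatin-associated cofactor, differed by 1.36 (SE 0.11) and 1.47 (SE 0.14). In each of these 4 genes the 16 arrays fell into 2 ranges that did not overlap.

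Pabpc1, which binds poly(A) tails, Ftl1, the ferritin light chain, and Cox6c, a subunit of cytochrome c oxidase, were among the brightest. Their differences were 1.26 (SE 0.15), 1.02 (SE 0.15) and 1.16 (SE 0.17), in each case without overlap of the sets. Eed of the Polycomb repressive complex, Skp1 of the SCF ubiquitin ligase and Psmd14 of the proteasome differed by 1.65, 1.35 and 1.15, also without overlap. Several of these genes have close copies in the mouse genome, and the probe sequences are not used here, so signal from such copies cannot be told apart.

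Prrx1 and Tpt1 were lower in the first set. Prrx1, a homeobox gene of mesenchyme, ran from 6.65 to 7.37 in the first set (median 7.15) and from 7.49 to 9.72 in the second (median 8.30), a difference of -1.25 (SE 0.29) without overlap. Its highest values were 9.72 in null day 5 replicate 4 and 8.94 in null day 6 replicate 2, and without these arrays the difference was -0.89. Tpt1, the translationally controlled tumour protein, ran from 5.52 to 7.58 and from 6.96 to 8.43, a difference of -1.15 (SE 0.30). Only 4 first-set and 5 second-set arrays showed Tpt1 above background.

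The next genes on the low side were separated by less than 1 log2 unit. They began with Creg1 at -0.92, Ece1, which processes endothelin, at -0.80, Lrrc49 at -0.78, Tlcd3a and Acap3 at -0.76 each, Irs2, an adaptor of the insulin receptor, at -0.76, Ripor1 at -0.71, Sh3kbp1 at -0.67 and Atxn7l2 and Slc25a47 at -0.62 each. Of these, Ece1, Tlcd3a and Sh3kbp1 were at -0.39, -0.50 and -0.42 without null day 5 replicate 4 and null day 6 replicate 2, whereas Atxn7l2 was at -0.60 and Acap3 at -0.74.

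The 340 genes showed the difference in each part of the data. Their median was 1.32 among wild-type arrays (0.75 to 2.35) and 1.27 among null arrays (0.73 to 2.21). It was 1.43 among day 5 arrays and 1.14 among day 6 arrays, with the lowest gene at 0.73 and at 0.53. None of the 340 was at or below 0 in any of these 4 parts, which the separation within every group requires. The mean over the 340 genes was 9.07 to 9.55 on the 8 first-set arrays and 7.68 to 8.29 on the 8 second-set arrays.

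Over all 10939 genes, set differences taken from wild-type and from null arrays had a Pearson's r of 0.616 (Spearman's rho 0.551), and 72.6% had the same sign. Between day 5 and day 6 arrays r was 0.457 (rho 0.365), and 64.9% had the same sign. These are descriptions across genes, which are not independent replicates, and the parts share the normalization though not the arrays. The correlation of deviations from group means between arrays of different groups had a median of 0.22 over the 24 pairs within the first set (-0.32 to 0.44) and of 0.17 over the 24 pairs within the second (-0.34 to 0.67). Over the 48 pairs from different sets the median was -0.19 (-0.49 to 0.32). Of the pairs, 22 within the first set, 19 within the second and 11 between sets were above 0. The sets were chosen from the values of these same arrays, which favours agreement between the parts and within the sets.

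**Figure D3:**
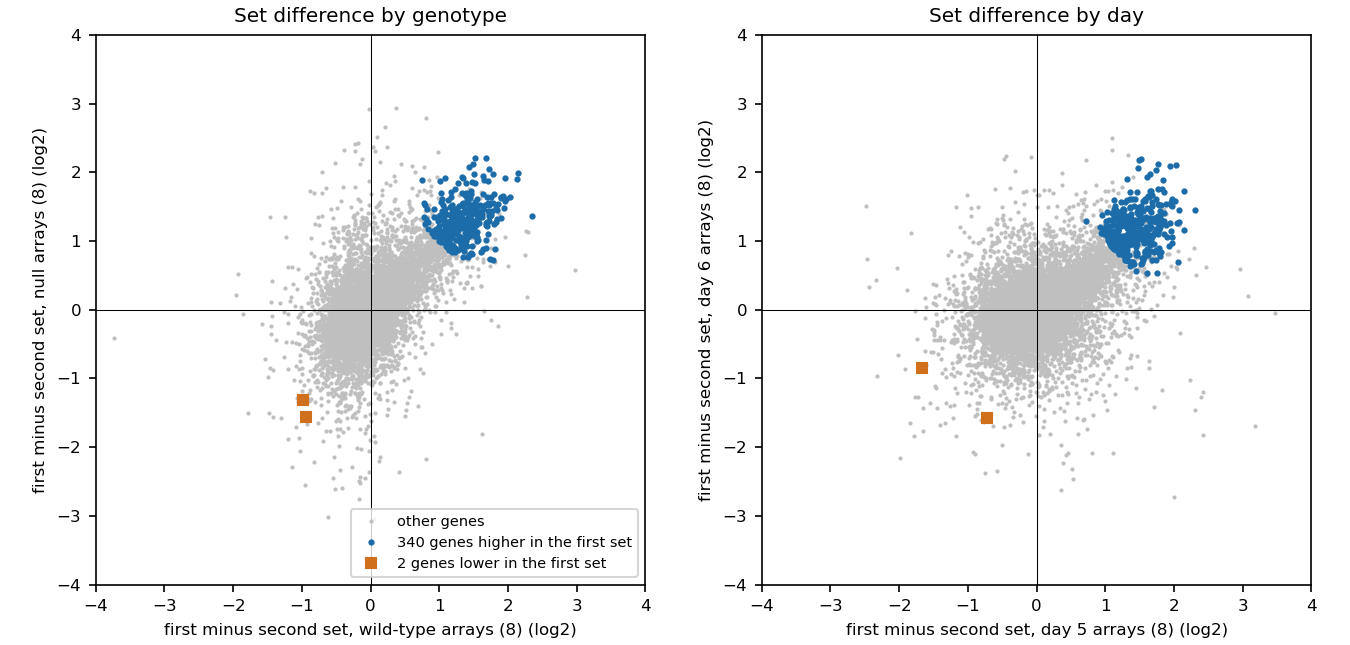
First minus second set difference in log2 units of each of the 10939 genes, from null against wild-type arrays (left) and day 6 against day 5 arrays (right), with 8 arrays on each axis. The 340 genes lie above 0 on all axes, which their choice requires, and the all-gene cloud has r of 0.616 on the left and 0.457 on the right.

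The difference was also seen without the replicate 3 arrays, which had the fewest probes above background. In the 340 genes its median was then 1.18, against 1.29 with all arrays, and 284 of them stayed at 1 or more. Without these 4 arrays the same rule gave 373 genes higher in the first set, of which 284 were among the 340. The count of genes lower in the first set was 93, against 2 with all arrays, and both Prrx1 and Tpt1 were among the 93. The second set then consisted of 1 array per group, so separation within a group was a weaker condition.

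Symbols, positions and lengths were not part of the choice. The 340 genes were dimmer than all genes, with a median of 8.48 log2 units against 9.60. Of the 340, 96 (28.2%) were probes with no gene symbol, against 1995 (18.2%) of all 10939 genes. Among genes with a RefSeq position, 13 of 244 (5.33%) lay on the X chromosome, against 303 of 8935 (3.39%). The median genomic span was 22.6 kb, against 22.4 kb over all genes.

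Other probes of the same genes mostly did not show the difference. Of the 340 genes, 57 had at least 1 more probe above the filter, 70 other probes in all. Their median set difference was 0.13 (-1.41 to 1.82), against 1.19 for the brightest probes of the same 57 genes, and 11 of the 70 (15.7%) were at least 1 log2 unit higher in the first set. Over the 4654 other probes of all genes, the median was -0.04 and 6.51% were at least 1 higher. The brightest probes were the ones the rule selected on, and the other probes were dimmer, with a median of 7.96 against 9.22 log2 units. Split by intensity, the 33 other probes at a mean of 8 or more had a median difference of 0.05, and the 37 dimmer ones had 0.24.

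Ctnnb1, which encodes β-catenin of the Wnt pathway and cell junctions, had 3 probes above background on all 16 arrays. The brightest ran from 12.40 to 13.26 in the first set and from 11.37 to 12.24 in the second, a difference of 1.17 (SE 0.11). The second probe differed by 0.94 (SE 0.09), with ranges of 11.23 to 12.03 and 10.24 to 10.97. The third ran from 9.97 to 10.57 and from 9.98 to 10.87, a difference of -0.11 (SE 0.10). The first pair of probes thus placed the 2 sets apart, and the third did not.

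Pabpc1 behaved alike, with its brightest probe at 1.26 and the other two at -0.25 (SE 0.11) and 0.05 (SE 0.09), all above background on 16 arrays. In Ncbp2, of the nuclear cap-binding complex, probes of similar brightness (9.08 and 8.83 log2 units on average) differed by 1.26 (SE 0.12) and -0.09 (SE 0.15). Hsp90aa1, a cytosolic chaperone, gave 1.23 (SE 0.22) with the bright probe and -0.45 (SE 0.39) with a probe at 7.89 that was above background on 13 arrays. In Il17rd the probes differed by 1.86 (SE 0.28) and 0.31 (SE 0.25), at 8.93 and 8.63 log2 units on average. For these genes the size of the set difference depended on the probe.

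In other genes more than 1 probe did show it. Smad1, which transmits BMP signals, had 2 probes at 10.82 and 10.81 log2 units that differed by 1.50 (SE 0.27) and 1.69 (SE 0.24), and a dim other probe at 0.60. Dek, a chromatin protein, gave 1.30 (SE 0.14) and 1.45 (SE 0.22). Emg1, of ribosome assembly, gave 1.22 (SE 0.15) and 1.38 (SE 0.13), and Psmd14 gave 1.15 (SE 0.13) and 1.40 (SE 0.21). Whether the probes of a gene lie in the same part of the transcript was not tested.

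**Figure D4:**
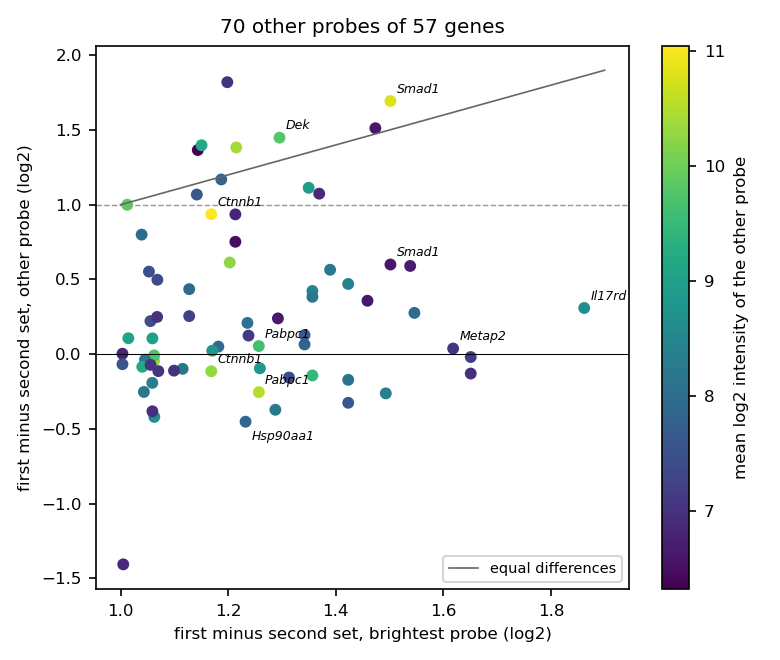
Set difference of 70 other probes (vertical axis, log2) against that of the brightest probe of the same gene (horizontal axis, log2), coloured by the mean log2 intensity of the other probe, with a solid line for equal differences and a dashed line at 1. Of the 70 points, 11 lie at or above 1, and most lie near 0, with a median of 0.13.

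Gene lists for lineages and cell processes held 7 of the 340 genes. The 29 lists had 505 genes, of which 453 had a probe and 335 were measured. Symbols not on the array were matched through RefSeq synonyms, and in the imprinted list this put Nckap1, a different gene, in the place of H19. The counts and the median of that list include Nckap1, which was at 0.35 and separated higher in the first set. Of these 335, 7 were separated and at least 1 log2 unit higher in the first set and none lower, beside 3.11% and 0.0183% of all genes. Counts this small are not read as a result about the lists. Of the 29 lists, 15 had a median above 0.

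Oxidative phosphorylation had the most, 3 of 17 measured genes, with a list median of 0.07 against -0.06 over all genes. Ndufb9 of complex I, Cox6c of complex IV and Atp5a1 of the ATP synthase differed by 1.36 (SE 0.14), 1.16 (SE 0.17) and 1.06 (SE 0.17), whereas 8 of the other members were at or below 0. Of 19 heat shock and unfolded protein response genes, Dnajb9, a cochaperone of the endoplasmic reticulum, and Hsp90aa1 were counted, at 1.24 and 1.23, and the list median was -0.01. Hspe1, the mitochondrial chaperonin 10, was at 1.36 without separation in every group, and Hspd1, its partner chaperonin, at -0.04. The remaining 2 were Ddx3x, an X-linked RNA helicase, at 1.05, and Il17rd of the FGF list.

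The medians of ribosomal protein and housekeeping genes lay near the middle. The 13 ribosomal protein genes had a median of 0.01 (-0.18 to 0.30), and the 11 housekeeping genes a median of -0.01 (-0.53 to 0.79). Of the ribosomal protein genes 1 was separated higher in the first set, and of the housekeeping genes 1 was separated higher and 1 lower. Rpl27 and Rps6 differed by -0.00 and -0.05, Gapdh by -0.03 (SE 0.06) and Actb by -0.06 (SE 0.04), with overlapping sets in each.

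A different pattern was seen in genes of the differentiating lineages, where the set difference lay mostly among null arrays. All 18 measured DE genes were above 0, with a median of 0.47 and none separated. The median was 0.15 among wild-type arrays and 0.86 among null arrays, and it was 0.12 without null day 5 replicate 4 and null day 6 replicate 2. Both of these cultures lay in the second set and stood apart from the other null cultures in Lhx1 and in mesendoderm genes.

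Eomes, a T-box factor that induces endoderm, read 11.08, 10.29, 11.22 and 11.18 in the first-set null arrays. In the second-set null arrays it read 10.81 and 11.10 in the replicate 3 cultures, and 5.51 in null day 5 replicate 4 and 6.27 in null day 6 replicate 2. The 8 wild-type arrays ran from 9.30 to 10.41. The Eomes set difference of 1.31 (SE 0.86) was 2.52 among null arrays and 0.10 among wild-type arrays, and 0.05 without the 2 low cultures.

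Lhx1 itself was 14.69, 14.73, 14.88 and 14.77 in the first-set wild-type arrays and 14.80, 14.39, 14.34 and 14.57 in those of the second set. The first-set null arrays read 13.67, 13.43, 14.03 and 13.84. Of the second-set null arrays, null day 5 replicate 3 read 14.49 and null day 6 replicate 3 read 13.10, against 8.15 in null day 5 replicate 4 and 9.76 in null day 6 replicate 2. The difference of 1.30 (SE 0.83) was 0.12 without the latter 2. Whether the Lhx1 probe reads the deleted part of the gene is not given in the sources used here, so it does not check the genotype labels.

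Mixl1, a homeobox gene of the primitive streak, Gsc, a homeobox gene of the anterior streak, and Mesp1, of nascent mesoderm, differed by 1.32, 1.15 and 1.64. Among wild-type arrays the same genes were at 0.64, 0.14 and 0.99. The 13 primitive streak and nascent mesoderm genes had a median of 0.63, which was -0.07 among wild-type arrays, 1.20 among null arrays and 0.02 without the 2 null cultures. The 8 epiblast and formative genes, with the growth factors Fgf5 at 1.44 and Fgf8 at 0.98, had medians of 0.35, -0.03, 0.99 and -0.10 in the same order. The 14 genes of FGF and MAPK feedback had 0.30, -0.11, 0.49 and -0.05.

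Some lists on the low side had like medians in both genotypes. All 12 measured extracellular matrix genes were below 0, with a median of -0.21, and -0.38 in wild-type and in null arrays. The median without the 2 null cultures was -0.21, which compares with -0.06 over all genes on all 16 arrays. Lama1, a laminin chain, was at -0.82 (wild-type -0.75, null -0.88), and Col5a1, a collagen chain, at -0.81 (wild-type -0.70, null -0.93). Of 9 mesenchyme and fibroblast genes, 8 were below 0, with a median of -0.52, and -0.44 in wild-type, -0.46 in null arrays and -0.37 without the 2 cultures. In this list the transcription factors Zeb1 and Twist1 were at -0.95 and -0.90. Snai2, a transcription factor of epithelial-mesenchymal transition, and Acta2, smooth muscle actin, were at -1.50 and -1.39, and at -0.52 and -0.40 without the 2 cultures. The 10 lateral and cardiac mesoderm genes and the 8 blood and endothelium genes had medians of -0.40 and -0.42 over all arrays, and of -0.00 and -0.03 without the 2 cultures. None of these genes was separated in every group. In bulk RNA, fewer cells of a type and less RNA per cell cannot be told apart.

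**Figure D5:**
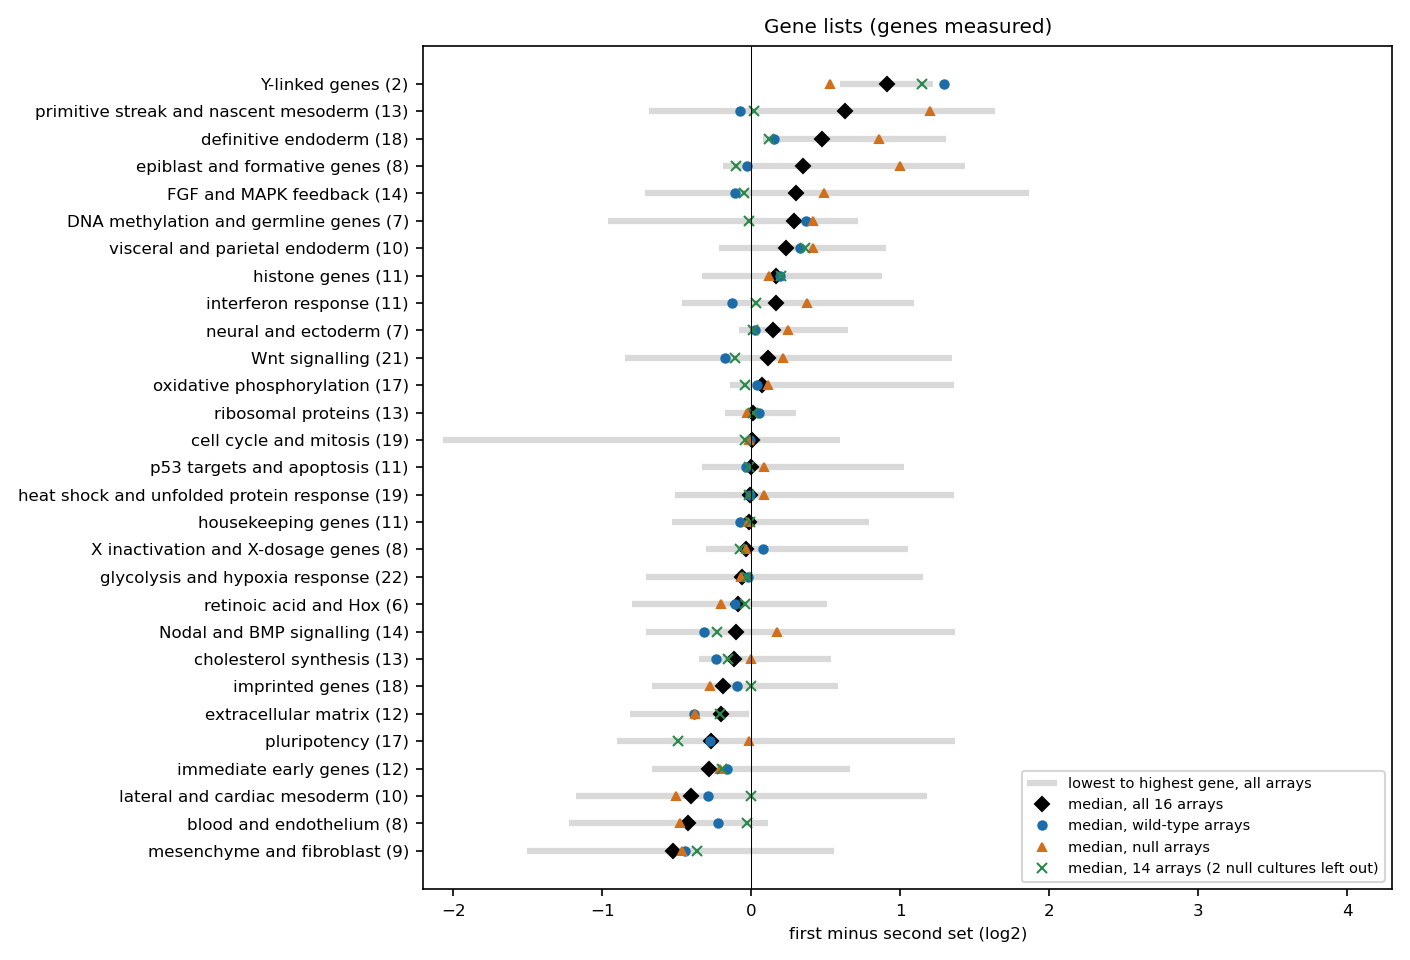
Median first minus second set difference in log2 units of 29 gene lists over all 16 arrays (diamonds), the 8 wild-type arrays (circles), the 8 null arrays (triangles) and 14 arrays without null day 5 replicate 4 and null day 6 replicate 2 (crosses), with bars from the lowest to the highest gene over all arrays. Primitive streak, definitive endoderm and epiblast lists lie to the right, at 0.63, 0.47 and 0.35, and move to 0.02, 0.12 and -0.10 in the 14 arrays. The imprinted list holds Nckap1, a different gene, in the place of H19.

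Some genes differed strongly between arrays without following the sets. In all, 495 genes were at least 1 log2 unit higher and 69 lower in the first set, of which 155 and 67 were not separated in every group. Plk1, a mitotic kinase, had the lowest list value, -2.07 (SE 1.37). It read 6.47 to 6.96 on 5 first-set arrays and 11.46 to 12.28 on the other 3, and 6.42 to 9.01 on 3 second-set arrays and 12.07 to 12.98 on the other 5. Both sets therefore held arrays at low and at high values.

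Y-linked genes were mostly below the filter, and whether the sets hold cell lines of different sex chromosomes was not tested. Of 8 Y-linked genes with a probe, only Eif2s3y, a translation initiation factor, and Uty, a histone demethylase-like gene, passed the filter. Eif2s3y read 9.30, 9.70, 10.03 and 9.96 in the first-set wild-type arrays and 8.31, 7.77, 8.15 and 7.94 in those of the second set. Among null arrays it read 9.25, 5.28, 8.93 and 5.47 in the first set and 6.33, 5.82, 8.59 and 5.25 in the second. Wild-type arrays thus lay in 2 ranges that did not overlap, whereas each set of null arrays held both low and high values. The difference was 1.22 (SE 0.70), 1.70 among wild-type and 0.73 among null arrays. Uty differed by 0.60 (SE 0.23) and was above background on 4 first-set arrays and no second-set array. Xist, the RNA of the inactive X chromosome, did not pass the filter. Among 8 X-linked dosage genes, Ddx3x was counted, and the list median was -0.04.

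Because each set held 2 arrays of every group, the set difference did not enter the null minus wild-type difference itself. It could enter the spread against which that difference was judged, and this was examined with a set term in the model. Null and wild-type cultures were compared by limma with Benjamini-Hochberg adjustment over all 10939 genes at an adjusted p under 0.05. The group means alone gave 61 genes at day 5 (0.558%), 54 lower and 7 higher in null cultures, and 172 at day 6 (1.57%), 109 lower and 63 higher. Leaving out single arrays gave 11 (without wild-type day 5 replicate 2) to 178 (without wild-type day 5 replicate 1) genes at day 5 and 33 (without wild-type day 6 replicate 4) to 337 (without wild-type day 6 replicate 2) at day 6. With the set term the counts were 63 (0.576%) and 220 (2.01%). At day 5, 52 genes passed in both fits, 11 only with the term and 9 only without it. At day 6 these numbers were 168, 52 and 4. A term chosen from the same values makes the residual spread too small, so adjusted p-values from the fit with the term are too low.

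The term moved the standard error most in the genes that separated the sets, which their choice by that separation requires. The ratio of the standard error with the term to that without had a median of 0.951 over all genes and of 0.461 over the 342 genes counted as higher or lower. Without the term none of these 342 genes passed the test for genotype at either day. An unadjusted p under 0.05 was seen in 1 and 3 of them at day 5 and day 6, beside 1299 and 1525 of all 10939 genes. With the term, 55 and 25 of the 342 had an unadjusted p under 0.05, beside 1593 and 1834 of all 10939 genes. The choice of the 342 genes favours a wide spread within groups without the term and a small one with it. These counts therefore describe that choice and are not read as a result about the genes. None of the 342 passed at day 5 and 3 passed at day 6 (0.877%), beside 0.576% and 2.01% of all genes. These were Gpc4, lower in null cultures by a log2 difference of -2.39 (adjusted p 0.0366 with the term and 0.196 without), Lgalsl at -1.02 (0.0437 and 0.451) and Spats2l at 1.23 (0.0273 and 0.203).

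Hhex, Sox17, Foxa2 and Otx2 had lower mean values in null than in wild-type cultures in both sets and on both days. Hhex, a homeobox gene of anterior DE, read 11.36 and 12.86 in wild-type and 9.95 and 9.79 in null cultures of the first set at day 5, and 12.26 and 12.78 against 10.09 and 9.86 in the second. Its null minus wild-type difference was -2.24 in the first set and -2.55 in the second at day 5, and -2.45 and -2.15 at day 6. It fell by 2.40 (SE 0.32) at day 5 and fell by 2.30 (SE 0.32) at day 6, with adjusted p of 0.00458 and 0.00545 without the term and 0.00705 and 0.0069 with it. Null and wild-type values of Hhex did not overlap within a set and day.

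Sox17, an endoderm transcription factor, fell at day 5, with differences of -2.28 in the first set and -2.58 in the second (adjusted p 0.0459 without the term and 0.0407 with it). With the replicate number as a block the day 5 call of Sox17 was lost (adjusted p 0.0519). At day 6 it differed by -1.24 and -2.05 and did not pass in either fit (adjusted p 0.121 and 0.0899). Foxa2 and Otx2, transcription factors of the anterior streak and anterior endoderm, did not pass at either day in either fit. Foxa2 differed by -2.17 and -2.76 at day 5 and by -1.20 and -2.88 at day 6 in the first and second set. Otx2 differed by -1.64 and -2.95 at day 5 and by -1.50 and -3.22 at day 6. The second-set differences of these genes rest in part on null day 5 replicate 4 and null day 6 replicate 2, where Foxa2 read 5.88 and 6.45 and Otx2 read 8.81 and 8.53.

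The 11 genes that passed only with the term at day 5 had adjusted p of 0.0504 to 0.146 without it (median 0.0732), and the 52 at day 6 had 0.0506 to 0.451 (median 0.0779). The 9 and 4 genes that passed only without it had 0.0507 to 0.0549 and 0.0517 to 0.0532 with it. At day 5, Msx1, a homeobox gene of lateral mesoderm, was higher in null cultures by 1.94 (SE 0.41), with adjusted p of 0.0504 without the term and 0.0459 with it, and Lypd6b was at -1.91 (0.0554 and 0.0441). Farther from the threshold without the term were Ap1s3, an adaptor subunit of vesicle traffic, at -1.60 (0.146 and 0.0407) and the probe ILMN_2714278 at 1.85 (0.1 and 0.0441). Cmtm8 at -2.40 (0.0495 and 0.0547) and Mertk, a receptor tyrosine kinase of phagocytosis, at -2.21 (0.0459 and 0.051) went the other way. With the replicate block, Msx1 and Lypd6b passed at day 5 (adjusted p 0.034 and 0.0133) and Mertk did not (0.0552). At day 6, Twist2, a mesenchymal transcription factor, at 3.73 (0.0725 and 0.0452) and Cer1, a secreted Nodal and BMP antagonist of anterior endoderm, at -3.56 (0.057 and 0.0401) passed only with the term. Rarb, a retinoic acid receptor, at -2.95 (0.0491 and 0.0517) and Trh, a hormone precursor expressed in DE, at -2.86 (0.0471 and 0.0517) passed only without it.

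Within a single set, with 2 wild-type and 2 null cultures per day, limma gave 0 genes at day 5 and 5 at day 6 in the first set, and 4 and 0 in the second. The counts at an unadjusted p under 0.05 were 1024 and 1716 in the first set and 984 and 653 in the second. Without the replicate 3 arrays limma called no gene at either day, with 1008 and 1066 genes at an unadjusted p under 0.05.

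Whether the null minus wild-type difference itself differed between the sets was examined as genotype by set, averaged over the days. The sets were chosen from these same values as a division common to both genotypes. That choice can affect the residual spread and the difference examined alike. This fit is therefore no independent test, and its count of genes does not decide whether the effects were equal. With limma none of the 10939 genes passed (0%), the smallest adjusted p was 0.9999, and 224 genes had an unadjusted p under 0.05, where uniform p-values would give 546.95. The 5 genes of smallest p included Myo7a, an unconventional myosin, at 1.92 (SE 0.41), Stx11, a syntaxin, at 1.22 (SE 0.28), Capn1, a calcium-dependent protease, at 1.08 (SE 0.25) and Dock1, a guanine nucleotide exchange factor, at 0.85 (SE 0.21), each with an adjusted p of 0.9999. Without the replicate 3 arrays, a setting added once these values were known, 66 genes passed. The second set then held 1 null culture per day, and these were the 2 cultures low in Lhx1 and Eomes. For Hhex, Sox17, Foxa2 and Otx2 the genotype by set difference over all 16 arrays was 0.00 (SE 0.44), 0.55 (SE 0.69), 1.13 (SE 0.82) and 1.52 (SE 1.08). These standard errors leave room for differences of 1 log2 unit or more between the sets in the latter 3 genes.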

How the data were processed

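The 16 cultures were profiled on Illumina bead arrays (Mouse WG-6 v2). The authors deposited probe intensity values without normalization and, beside each, a detection p-value, from GenomeStudio (version not given in the sources used here). The authors also deposited rank invariant normalized intensity values. Each array of these equals the first table times a factor (0.781 to 1.22) plus a constant. Their own test, the Illumina custom error model, was not repeated here.

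In R 4.3.3 with limma 3.58.1, the deposited intensities were background-corrected with neqc, which infers background from the detection p-values (offset 16), then quantile normalized and taken to log2. The filter, detection p below 0.01 in 4 or more arrays, left 15593 of 45281 probes. Symbols came from the platform annotation, in which 34885 probes have 1 symbol, 18 several and 10378 none. The brightest kept probe represented a symbol, and probes without a symbol kept their own ID, which left 10939 genes. Of these, 8935 were placed in RefSeq by Entrez ID.

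The set difference came from a linear model with the 4 group means and is given without p-values. Null against wild-type used group means over all 16 arrays, with moderated statistics. The sets, the lists and the genes named were chosen with earlier results of these data known. Named genes were the 12 highest and 12 lowest separated set differences, Lhx1, Xist and Y-linked genes, up to 3 counted or the 2 brightest members of each list, Hhex, Sox17, Foxa2 and Otx2, up to 5 genes of each day gained and 5 lost with the set term, and the 5 of smallest p in genotype by set. The lower list was filled up with genes separated by under 1 log2 unit, and other genes were chosen after their values were seen. Replicate cultures are named as independent in the methods, and whether a number marks the same line at both days is not given. Same-numbered wild-type and null cultures correlated in their deviations from group means by 0.139 to 0.36 in all 4 pairs of day 5, which were therefore also compared with the number as a block, and by -0.0439 to 0.441 at day 6. Same-numbered cultures of a day lie in the same set. Bounds against background set each array's dimmest detected signal as the floor. The number of arrays limits the precision. All columns of values belonged to these 16 arrays. The set difference, the separation rule and the limma fits without a replicate block were run on simulated log2 values. The other steps, among them background correction, the filter and the choice of probes, were not simulated.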

Additional observations from a re-analysis of the deposited data

Results flagged for a closer look

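In groups of 4 cultures, 18 of 372 series of values had a highest or lowest culture far from the other 3 by Dixon's criterion, which chance does in about 1 of 20. Of the 18, 13 belonged to null day 5 replicate 4 or null day 6 replicate 2, both in the second set. In null day 5 replicate 4, Lhx1 read 8.15 log2 units against 13.43 in the nearest null day 5 culture, Eomes 5.51 against 10.29, Mixl1 7.76 against 11.53 and Mesp1 6.02 against 10.88, whereas Ripor1 read 9.10 against 7.83 and Sh3kbp1 10.75 against 9.30. In null day 6 replicate 2, Eomes read 6.27 against 11.10, Mixl1 8.42 against 11.84, Gsc 8.63 against 12.97, Fgf5 6.98 against 11.59, Fgf8 8.33 against 12.68 and Lypd6b 5.95 against 7.68, whereas Ece1 read 11.82 against 10.11.

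The remaining values were 11979 probes above background in wild-type day 6 replicate 3 against 14562, Uty at 7.26 in null day 5 replicate 1 against 6.02, Plk1 at 6.90 in null day 6 replicate 4 against 11.90, and Gapdh at 13.92 in wild-type day 5 replicate 4 against 14.24 and at 14.44 in null day 6 replicate 3 against 14.29.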

How the results depend on the processing

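The count of genes higher in the first set, 340, was 87 without background correction, 87 from the rank invariant intensities, 110 with genes above background on all 16 arrays (which leaves fewer genes), 557 over every kept probe and 566 from day 5 arrays alone, and lay between 261 and 422 in the other settings. Leaving out single arrays gave 324 to 399. The 2 genes lower in the first set became 0 without background correction, from rank invariant intensities and with genes above background on all arrays, 1 with an offset of 50, 4 without a filter, 15 and 56 in wild-type and in null arrays alone, 64 and 96 in day 5 and in day 6 arrays alone, 93 without the replicate 3 arrays, and 2 to 13 (without null day 5 replicate 3) leaving out single arrays. Restricting to fewer groups loosens the rule, and the cause of the other shifts was not tested. Of the 29 lists, 9 had a median above 0 in wild-type arrays alone, against 15.

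The counts for null against wild-type (day 5, then day 6) were 21 and 82 with no filter, 18 and 73 with genes above background on all arrays, 0 and 5 in the first set alone, 4 and 0 in the second, and 0 and 0 without the replicate 3 arrays, with fewer samples in the latter fits. Without null day 6 replicates 3 and 4 it gave 5 at day 6. Leaving out single arrays gave 11 (without wild-type day 5 replicate 2) to 178 (without wild-type day 5 replicate 1) at day 5, and 33 (without wild-type day 6 replicate 4) to 337 (without wild-type day 6 replicate 2) at day 6. The day 5 count moved by over 1.5 times without any single array other than null day 5 replicate 3 and null day 6 replicates 3 and 4, and the day 6 count without each wild-type day 6 array and null day 6 replicates 1 and 3. For the genes named, no value changed sign past its threshold in any setting, and 139 and 119 values (day 5 and day 6) lost significance while 33 and 54 gained it. Without the 2 null cultures that stand apart they were 59 and 199. Genotype by set gave 66 genes without the replicate 3 arrays and 0 leaving out any single array.

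The replicate numbers met the criterion for pairing at day 5 and not at day 6. Same-numbered cultures of a day share a set, so the criterion cannot tell pairing by number from the set. At day 5, wild-type and null cultures of different number correlated by 0.302 and 0.273 within the first set. Within the second set such pairs correlated by 0.103 and 0.00534. The set difference and null against wild-type used different replicate blocks. For the set difference the number was shared across day 5 and day 6. That takes a number to mark the same line at both days, which is not given. Only numbers that changed set between the days inform the set difference in that fit. It gave 369 genes higher and 11 lower in the first set, and is no like check of the main counts. Blocked within day, null against wild-type gave 72 and 170 genes (day 5, then day 6). Of these, 41 and 109 also passed without the block.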
